A study of Mus musculus with 6 samples.

Results

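The endoplasmic reticulum folds secreted and membrane proteins with its own chaperones and foldases, and 10 of their genes are described here in 6 RNA-seq libraries of cells labelled HL-1. The members are Hspa5, Hsp90b1, Calr, Canx, Pdia3, Pdia4, Pdia6, Hyou1, Sdf2l1 and Fkbp2, taken by gene name from a table of 23060 rows in which all 10 had a row. HL-1 is a mouse atrial cardiomyocyte line. All 6 libraries came from wild-type cells in Claycomb medium with serum, norepinephrine, glutamine and antibiotics. In 3 libraries the cells were controls and in 3 they were tachypaced, that is, driven at a rapid electrical rate as a culture model of atrial fibrillation, with no rate or duration in the labels. Whether replicates came from separate cultures is not stated, so p-values cover the spread among the 6 libraries alone, and that spread may be technical. The comparison asks which transcripts differ after tachypacing.

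Proteins enter the reticulum through a channel in its membrane, are glycosylated and are held by chaperones until folded. Foldases of the disulfide isomerase and prolyl isomerase families speed the slow steps, and proteins that fail are sent back to the cytosol for degradation. When unfolded protein builds up, the membrane sensors encoded by Ern1, Eif2ak3 and Atf6 start the unfolded protein response, whose best known targets are the chaperone genes themselves. The reticulum is also the main calcium store of most cells, and several of these chaperones bind calcium.

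Expression is given as FPKM, fragments per unit of transcript length and of sequencing depth, so levels may be compared between genes. The FPKM values of a library summed to between 411050 and 432244, and read depth is unknown because whole-read steps could not be recovered from the low values. Defining markers of heart muscle were at or near 0, which goes against the labelled cell type. HL-1 is therefore used below only as the label of these libraries, and whether the cells serve as an atrial model was not tested. Of 10 cardiomyocyte markers 5 were listed at 0 in every library (Myh6, Myl7, Actc1, Nkx2-5 and Gata4) and only Tnni3 averaged 1 FPKM or more, while 9 of 10 macrophage markers did. The summed level of the macrophage markers was 1190 to 1332 FPKM in controls and 1467 to 1627 FPKM in tachypaced libraries, without overlap, and its part in the results below was not tested. Cd68, Lyz2, Fcgr1, Cd14, Spi1 and Tyrobp were each higher under tachypacing without overlap, as were 12.6% of all tested genes. In the limma fit described below Lyz2 and Cd14 passed (adjusted p = 0.0435 each). Cd68, Spi1 and Tyrobp did not pass (adjusted p of 0.0797, 0.196 and 0.150). Fcgr1, at 0.187 FPKM in controls and 0.320 FPKM in tachypaced libraries, was below the level tested. The groups overlapped for Ptprc, Adgre1, Itgam and Csf1r, and Csf1r averaged 95.5 FPKM in controls and 94.8 FPKM in tachypaced libraries. Fibroblast markers summed to at most 0.144 FPKM and endothelial markers to at most 1.89 FPKM in any library. Of 4 plasma cell markers with a row, 2 averaged 1 FPKM or more, and the 4 summed to 7.82 to 9.39 FPKM in controls and 9.60 to 10.45 FPKM in tachypaced libraries. Of these 4, Mzb1 averaged 0.986 and 2.62 FPKM and Sdc1 7.71 and 7.34 FPKM in the control and tachypaced groups, Jchain was under 0.1 FPKM and Tnfrsf17 was listed at 0. In RNA from whole cultures, fewer cells of a type and less RNA per cell cannot be told apart. Control replicate 1 lay nearer to the other group than any other library did. Over the genes where the other 2 libraries of its group and the 3 of the opposite group did not overlap (5999 genes), its median position was 0.646 on a scale from 0, the mean of those 2, to 1, the mean of the opposite group. The same measure was 0.020 for control replicate 2, -0.34 for control replicate 3 and 0.035, -0.099 and 0.32 for tachypaced replicates 1 to 3, each over its own 4105 to 4769 genes. The gene choice itself uses the libraries, so these positions are a description. Values without control replicate 1 are given where they change a call.

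In tachypaced libraries Hsp90b1 and Calr fell, Fkbp2 rose and the other 7 members did not pass the test. Hsp90b1, the reticulum member of the Hsp90 family, fell to 0.790 of its control mean in FPKM, Calr, the calcium-binding lectin chaperone calreticulin, fell by 13.5%, and Fkbp2, a prolyl isomerase of the lumen, rose by 33.0%. Of 10361 tested genes (those averaging 1 FPKM or more), 2.3% were called higher and 3.22% lower (limma on log2(FPKM + 1), Benjamini-Hochberg adjusted p below 0.05). Among the 10 members, all of which were tested, 1 was higher and 2 were lower. At an unadjusted p under 0.05 it was 1 and 4, where 10.8% and 19.4% of all tested genes were higher and lower. Their median log2 fold change was -0.06, against -0.04 over all tested genes. The split of all calls, 238 higher and 334 lower, was 221 (2.13%) and 184 (1.78%) after median of ratios scaling, 13 (0.125%) and 4 (0.0386%) after quantile normalization and 250 (2.41%) and 924 (8.92%) after scaling to a common total. Among the members it was 1 higher and 0 lower under the first 2 of these scalings and 1 and 2 under the third. All 3 calls lay close to the threshold and were lost when any library other than control replicate 1 was left out. In those fits only 1 to 3 of all tested genes were called higher and 0 to 1 lower, so the loss is not particular to these members. Before adjustment the limma p with all libraries was 3.6e-05 for Fkbp2, 0.0016 for Hsp90b1 and 0.0023 for Calr.

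The upstream sequences are shown because textbook descriptions of these genes centre on a shared promoter element, the ER stress response element or ERSE, through which Atf6 and Xbp1 act. The RefSeq promoter table (GRCm38.p6, 250 bases before to 50 after each start) held 9 of the 10 members. The motif, CCAAT and CCACG with 9 bases of any kind between them, was searched on both strands. It was found in 5 of these 9 genes, Hspa5, Hsp90b1, Calr, Canx and Pdia6. Of all 32851 promoters of that length 0.119% held it, or 0.137% of 27025 genes. The motif was chosen because descriptions of these genes centre on it, so its share among them is no separate finding. Each site is written so that the motif reads forward, with 5 flanking bases on each side and the motif in capitals.
Hspa5, chr2:34772020-34772048, plus strand: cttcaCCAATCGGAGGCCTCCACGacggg
Hsp90b1, chr10:86705633-86705661, minus strand: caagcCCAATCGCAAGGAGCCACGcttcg
Hsp90b1, chr10:86705528-86705556, plus strand: actcaCCAATCGTGCCTCACCACGcactc
Calr, chr8:84847070-84847098, plus strand: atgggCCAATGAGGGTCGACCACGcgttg
Canx, chr11:50325795-50325823, minus strand: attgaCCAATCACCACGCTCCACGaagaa
Pdia6, chr12:17266486-17266514, plus strand: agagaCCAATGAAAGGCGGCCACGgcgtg

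Hsp90b1 held 2 sites in opposite orientations, and in Calr the motif ran opposite to the gene. The Hspa5 site overlapped an exon of a longer transcript in GENCODE M21, and the others lay outside exons of their gene. ERSE-II (ATTGG and CCACG with 1 base between them, in 0.0365% of all promoters) and a core of the unfolded protein response element (TGACGTGG, in 0.676%) were in 0 of the 9 member promoters on either strand, so no ERSE overlapped one of them. The promoters of Pdia3, Pdia4, Sdf2l1 and Fkbp2 held none of the 3 motifs, which says only that these letters are not in this window. Among the 5 genes with an ERSE the log2 fold changes were 0.00 for Hspa5, -0.34 for Hsp90b1, -0.21 for Calr, -0.05 for Canx and -0.11 for Pdia6. Among the 4 without one they were -0.02 for Pdia3, -0.06 for Pdia4, -0.14 for Sdf2l1 and 0.40 for Fkbp2. The 2 members that fell are in the first group and the 1 that rose is in the second, a difference between the groups that was not tested.

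For the 3 members that passed the test, the bases upstream of both the RefSeq and the GENCODE start are printed on the strand of the gene, with ERSE matches in capitals.
Hsp90b1, chr10:86705510-86705694, minus strand: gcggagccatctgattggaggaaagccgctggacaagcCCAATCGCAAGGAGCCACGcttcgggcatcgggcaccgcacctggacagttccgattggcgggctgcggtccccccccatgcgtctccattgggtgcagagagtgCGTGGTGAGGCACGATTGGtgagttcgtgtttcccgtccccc
Calr, chr8:84846935-84847181, minus strand: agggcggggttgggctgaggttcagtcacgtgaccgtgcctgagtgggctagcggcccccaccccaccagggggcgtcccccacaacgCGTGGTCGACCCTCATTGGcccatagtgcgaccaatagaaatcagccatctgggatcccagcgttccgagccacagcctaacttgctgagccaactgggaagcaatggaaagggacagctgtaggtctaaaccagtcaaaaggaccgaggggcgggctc
Fkbp2, chr19:6980502-6980714, minus strand: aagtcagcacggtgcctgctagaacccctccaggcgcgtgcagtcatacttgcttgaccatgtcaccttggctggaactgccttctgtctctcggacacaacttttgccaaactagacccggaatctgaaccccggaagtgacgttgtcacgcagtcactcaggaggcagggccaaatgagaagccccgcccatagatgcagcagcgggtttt
Fkbp2 had 3 promoters in the table, and the one shown is the farthest upstream. Its bases were 56.3% G or C, against 64.3% in Hsp90b1 and 61.9% in Calr.

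The Hsp70 chaperone of the lumen was the most abundant member, and neither it nor its 2 helpers in the set passed the test. Hspa5 encodes BiP, the reticulum Hsp70 that binds nascent chains and holds the stress sensors inactive. The gene (chromosome 2, 34771970 to 34777547, GRCm38) was at 2129, 1934 and 1984 FPKM in control replicates 1 to 3 and at 2077, 1937 and 2034 FPKM in tachypaced replicates 1 to 3. The groups overlapped fully, and the log2 fold change was 0.00 (SE 0.06, adjusted p = 0.993), or 0.04 without control replicate 1. Hyou1, a large Hsp70-like protein that helps BiP exchange its nucleotide (chromosome 9, 44379490 to 44392369), was at 96.4, 104.6 and 101.7 FPKM in the controls, against 99.2, 96.0 and 95.1 FPKM under tachypacing. The ranges overlapped, with control replicate 1 among the tachypaced values (log2 fold change -0.06, SE 0.05, adjusted p = 0.471).

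Sdf2l1 encodes a small luminal protein that works in complexes with a J-domain partner of BiP. The gene (chromosome 16, 17130138 to 17132383) was at 109.5, 122.4 and 120.0 FPKM in the controls, against 102.6, 110.7 and 106.6 FPKM under tachypacing. Control replicate 1 lay within the tachypaced range and the other controls above it. The log2 fold change of -0.14 (SE 0.06) did not pass the test (adjusted p = 0.161). Without control replicate 1 it was -0.18 and passed (adjusted p = 0.0224), in a comparison where 18.8% of all tested genes were called lower.

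Hsp90b1 encodes GRP94, a chaperone with a narrow set of clients that include integrins and Toll-like receptors. The gene (chromosome 10, 86690209 to 86705509) was at 605.9, 666.4 and 731.9 FPKM in the controls, against 524.0, 500.8 and 558.9 FPKM under tachypacing. Every tachypaced value was below every control value, and control replicate 1 was the control nearest to them. The log2 fold change was -0.34 (SE 0.08, adjusted p = 0.0458). Without control replicate 1 it was -0.40 (SE 0.06, adjusted p = 0.00315). Without control replicate 2 or 3, or tachypaced replicate 1, 2 or 3, the adjusted p was 0.154, 0.141, 0.161, 0.173 and 0.0741. The gene overlaps the pseudogene 1810014B01Rik on the other strand over 4598 bases, and Gm15344 and a miRNA gene on its own strand. None of these has a row in the table, and the strand setting of the authors' counting is not given in the sources used here.

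Per library, the ratio of Hsp90b1 to Hspa5 was 0.285, 0.345 and 0.369 in control and 0.252, 0.258 and 0.275 in tachypaced libraries. Within each library the 2 transcripts share the same total, and the ratio was lower in all 3 tachypaced libraries than in all 3 controls. As Hspa5 hardly moved (log2 fold change 0.00) and Hsp90b1 was already lower without overlap, the ratio adds no separate evidence. It averaged 0.333 ± 0.0434 in the controls and 0.262 ± 0.0116 under tachypacing (SD, n = 3 each; no test was run on it), with control replicate 1 again nearest to the tachypaced group. The ratio of Hsp90b1 to Calr was 1.106, 1.152 and 1.281 in control and 1.078, 1.046 and 1.111 in tachypaced libraries, and these groups overlapped.

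Of the lectin chaperones, which hold glycoproteins by a glucose left on the sugar chain, the soluble one fell and the membrane-bound one did not pass the test. Calr (chromosome 8, 84841850 to 84846934) was at 547.7, 578.5 and 571.3 FPKM in the controls, against 485.9, 478.8 and 503.3 FPKM under tachypacing. The groups were separated by more than the range within either, and the log2 fold change was -0.21 (SE 0.05, adjusted p = 0.0478). Calr had an adjusted p of 0.00828 without control replicate 1 and of 0.169, 0.159, 0.1698, 0.173 and 0.0806 without control replicate 2 or 3, or tachypaced replicate 1, 2 or 3. Canx, the membrane-anchored calnexin (chromosome 11, 50293961 to 50325673), was at 273.4, 258.0 and 263.8 FPKM in the controls, against 261.6, 245.9 and 258.1 FPKM under tachypacing. These ranges overlapped (log2 fold change -0.05, SE 0.05, adjusted p = 0.493). The ratio of Calr to Canx was 2.00, 2.24 and 2.17 in control and 1.86, 1.95 and 1.95 in tachypaced libraries. It was lower in every tachypaced library than in any control, with control replicate 1 close to the tachypaced range. Whether the 2 genes' changes differ was not tested. As Calr was itself lower without overlap, this ratio adds no separate evidence.

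The disulfide isomerases of the set make and rearrange the disulfide bonds of client proteins, and none of the 3 passed the test. Pdia3, which works with calreticulin and calnexin on glycoproteins (chromosome 2, 121413775 to 121438687), was at 302.6, 293.2 and 293.4 FPKM in the controls, against 288.2, 300.0 and 287.6 FPKM under tachypacing. These values overlapped (log2 fold change -0.02, SE 0.05, adjusted p = 0.784). Pdia4, which is found in chaperone complexes with BiP (chromosome 6, 47796141 to 47813430), was at 100.6, 108.7 and 104.3 FPKM in the controls, against 100.6, 102.0 and 97.1 FPKM under tachypacing. Control replicate 1 lay inside the tachypaced range here too (log2 fold change -0.06, SE 0.05, adjusted p = 0.425).

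Pdia6, another isomerase that associates with BiP (chromosome 12, 17266545 to 17284770), was at 285.0, 293.1 and 296.6 FPKM in the controls, against 272.8, 271.4 and 268.2 FPKM under tachypacing. The groups did not overlap, but the log2 fold change of -0.11 (SE 0.05) did not pass after adjustment (unadjusted p = 0.0455, adjusted p = 0.157). Without control replicate 1 it was -0.12 and did not pass either (adjusted p = 0.0590). Non-overlapping groups were frequent in this table, in the lower direction in 22.4% of tested genes and in the higher direction in 12.6%. Among the members 3 of 10 had non-overlapping groups in the lower direction, Hsp90b1, Calr and Pdia6, and 1 in the higher direction, Fkbp2.

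Fkbp2 encodes a luminal immunophilin of the FK506-binding family, which turns the peptide bond before proline. The gene (chromosome 19, 6977741 to 6980501) was at 39.2, 41.2 and 38.4 FPKM in the controls, against 52.4, 54.2 and 51.2 FPKM under tachypacing. The gap between the groups was larger than the range of either, and control replicate 1 lay among the controls. On the scale where the other controls are 0 and the tachypaced mean is 1, control replicate 1 was at -0.05 for Fkbp2, against 0.54 for Hsp90b1, 0.32 for Calr and 0.41 for Pdia6. The log2 fold change was 0.40 (SE 0.05, adjusted p = 0.0435), the largest of the 10 members in absolute size with all libraries. It was also 0.40 without control replicate 1 (adjusted p = 0.00163), where Hsp90b1 at -0.40 was slightly larger in size, as it was with a common total (-0.38 against 0.36). Fkbp2 had an adjusted p of 0.154, 0.135, 0.159, 0.173 and 0.0675 without control replicate 2 or 3, or tachypaced replicate 1, 2 or 3, with log2 fold changes of 0.38 to 0.43 over these.

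**Figure D1:**
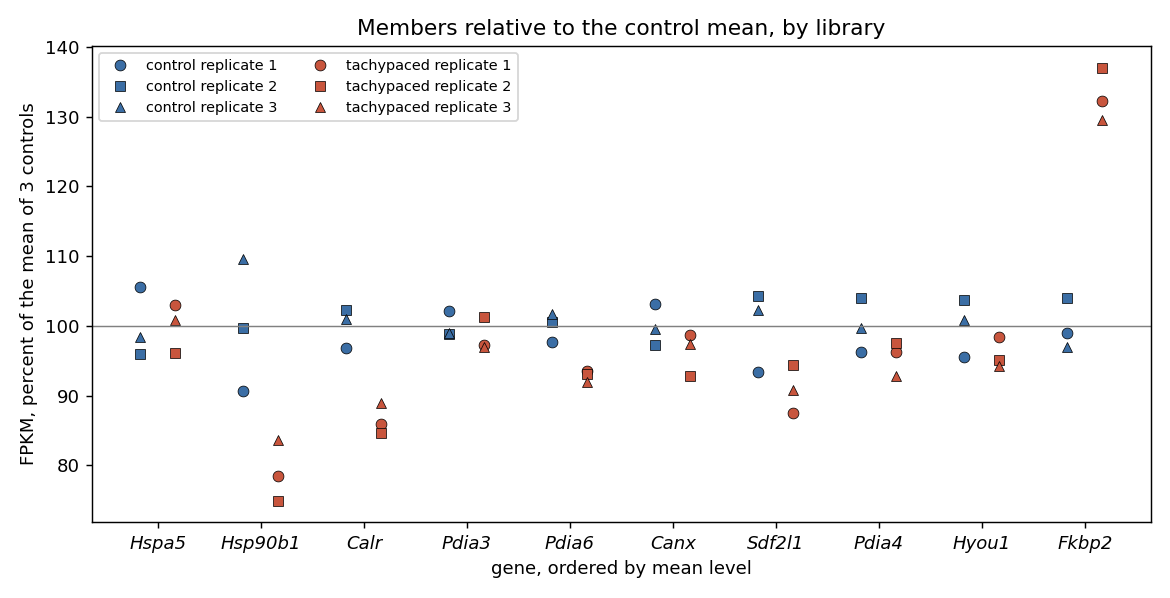
FPKM of each member in each library, as a percent of the mean of the 3 control libraries (vertical axis), for the 10 genes ordered by mean level (horizontal axis). Blue points are control and red points tachypaced libraries, and the marker shape gives the replicate. Fkbp2 sits at 129.5% to 137.1% in tachypaced libraries, while Hsp90b1 at 75.0% to 83.7% and Calr at 84.6% to 88.9% sit below their controls.

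The levels of the 10 genes spanned from 46.1 FPKM for Fkbp2 to 2016 FPKM for Hspa5 (means over the 6 libraries). In descending order they were Hspa5, Hsp90b1 (598 FPKM), Calr (528 FPKM), Pdia3 (294 FPKM), Pdia6 (281 FPKM), Canx (260 FPKM), Sdf2l1 (112 FPKM), Pdia4 (102 FPKM), Hyou1 (98.8 FPKM) and Fkbp2. Over the 6 libraries the ranges of 5 neighbouring pairs overlapped: Hsp90b1 and Calr, Pdia3 and Pdia6, Pdia6 and Canx, Sdf2l1 and Pdia4, and Pdia4 and Hyou1. Within single libraries the order held in all 6 for every neighbouring pair except Pdia3 and Pdia6, where it held in 5. The order therefore had steps between Hspa5 and Hsp90b1, between Calr and Pdia3, between Canx and Sdf2l1 and between Hyou1 and Fkbp2 that the spread over libraries did not bridge.

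**Figure D2:**
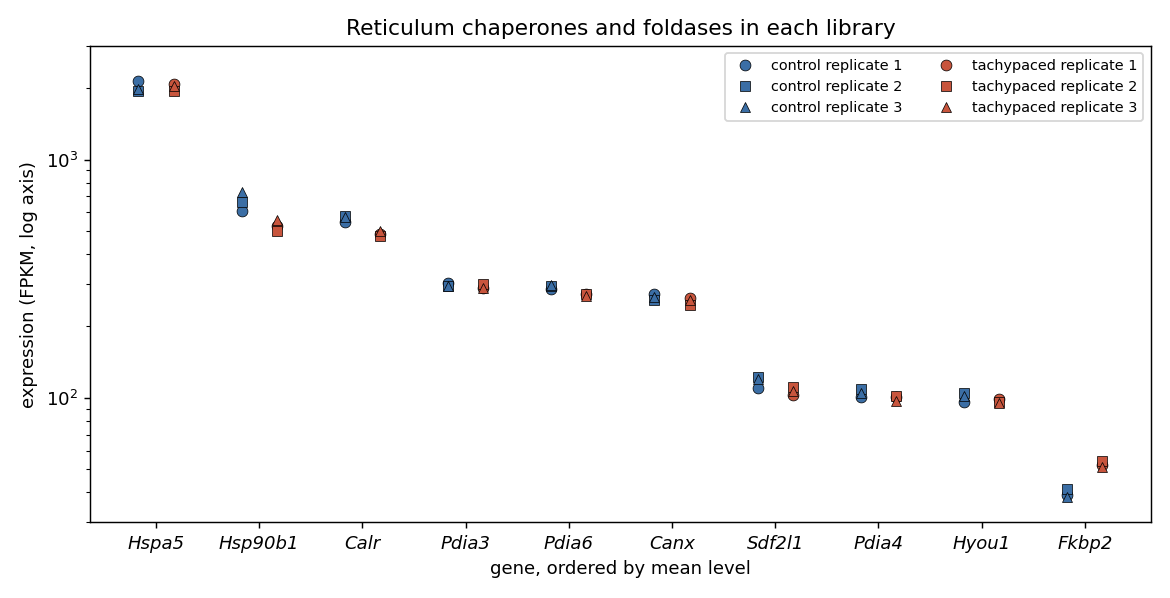
Expression of the 10 members in FPKM on a log axis (vertical) in each of 6 libraries, with genes ordered by mean level (horizontal). Blue points are control and red points tachypaced libraries, and the marker shape gives the replicate. Hspa5 lies at 1934 FPKM or more in every library and Fkbp2 at 54.2 FPKM or less, with the other members in 3 groups between them.

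Together the 10 members made up 1.09%, 1.06% and 1.08% of the summed FPKM of the control libraries and 1.005%, 0.948% and 1.02% of the tachypaced libraries. The share was lower in each tachypaced library than in any control, while the totals it is taken from were larger in tachypaced libraries (425370 ± 6409 FPKM) than in controls (413926 ± 2885 FPKM, SD, n = 3 each). The members' summed FPKM averaged 4465 in controls and 4207 in tachypaced libraries. Of this, Hsp90b1 averaged 668 and 528 FPKM and Calr 566 and 489 FPKM. The lower share is therefore largely that of these 2 called genes and no separate result. Hspa5 alone supplied 45.1% ± 1.98 of the members' FPKM in control and 47.9% ± 0.725 in tachypaced libraries (SD, n = 3 each). Its own mean was 2015 and 2016 FPKM, so its larger part goes with the smaller sum. Control replicate 1, at 47.4%, lay among the tachypaced libraries in this measure.

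The profiles of the members over the 6 libraries varied. Of their 45 pairs, 27 had a positive Pearson correlation of log2(FPKM + 1) and 8 exceeded 0.8, with a median of 0.16 (n = 6 libraries, which share the group difference and the scaling). Hsp90b1, Calr and Pdia6 were closest, with r of 0.95 for Hsp90b1 with Calr, 0.94 for Calr with Pdia6 and 0.93 for Hsp90b1 with Pdia6. Pdia4 and Hyou1 had an r of 0.90. Fkbp2 ran opposite to the first 3, with r of -0.95 with Calr, -0.92 with Pdia6 and -0.91 with Hsp90b1. Hspa5 had an r of -0.65 with Sdf2l1. Of the related genes listed below, the 5 most like the mean standardised profile of the members over the 6 libraries were Pdia5 (r = 0.96), Hspd1 (r = 0.95), Sec24b (r = 0.95), Ganab (r = 0.92) and Hsp90ab1 (r = 0.92). That profile is an average over members that differ, and 4 of these 5 genes did not pass the test. Of those 4, Pdia5, Hspd1 and Ganab passed without control replicate 1 (adjusted p of 0.0200, 0.0215 and 0.0170), where 18.8% of all tested genes were called lower. The profile itself was lower in every tachypaced library than in any control. Genes chosen by likeness to it are therefore low there by the choice, and these calls add no separate evidence.

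Genes that serve the same folding pathway were read from 7 lists of reticulum genes with 137 members, of which 128 were tested. Of these 5 rose and 0 fell, with 16 higher and 23 lower at an unadjusted p under 0.05, and the median log2 fold change was -0.02. The genes that rose were Krtcap2, Derl1, Fkbp11, Ostc and Txndc12, while in the counterpart list of cytosolic and mitochondrial chaperones Hsp90ab1 fell. With the backgrounds of 2.3% higher and 3.22% lower, the counts per list are small. At an unadjusted p under 0.05 the backgrounds for the lists below are 10.8% higher and 19.4% lower. Without control replicate 1 17 of the 128 were higher and 22 lower, where 11.2% and 18.8% of all tested genes were called higher and lower. Without any other single library 0 passed in either direction, where 1 to 3 of all tested genes were higher and 0 to 1 lower.

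**Figure D3:**
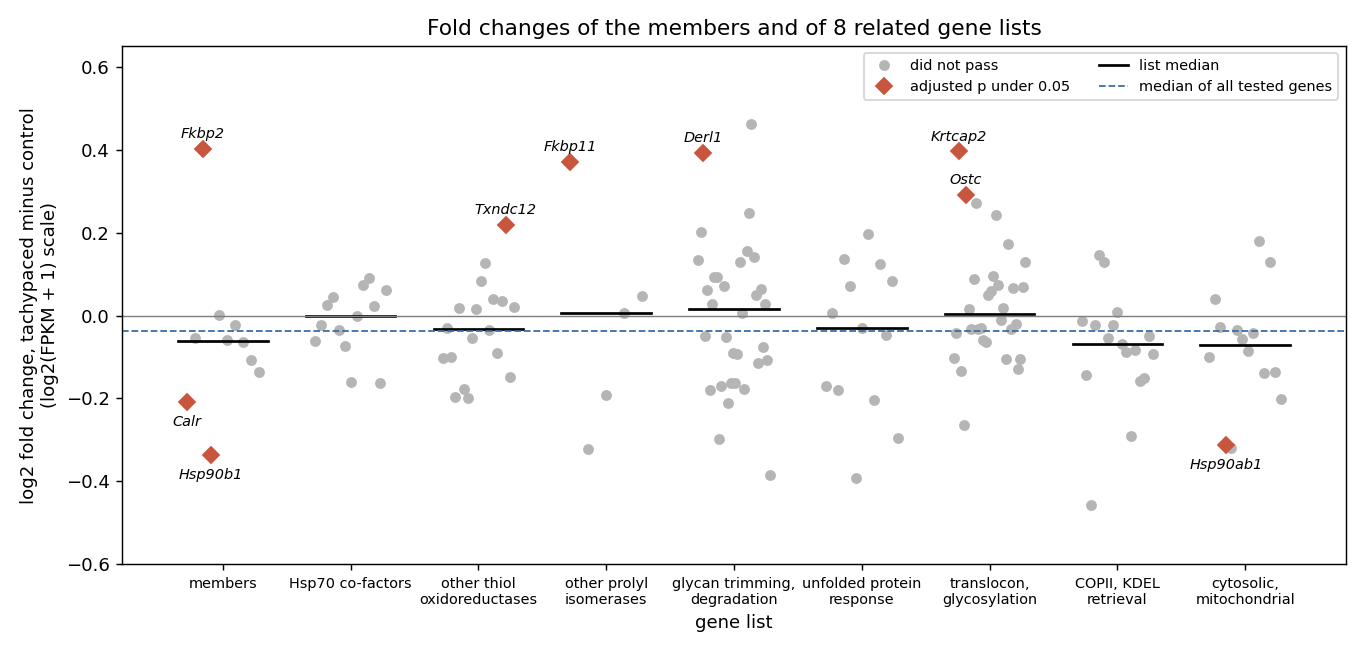
Log2 fold change on the log2(FPKM + 1) scale (vertical axis) of each tested gene in the member list and in 8 related lists (horizontal axis). Red diamonds are genes with an adjusted p under 0.05, grey points did not pass, black bars are list medians and the dashed line is the median of all tested genes. The calls are Fkbp2, Txndc12, Fkbp11, Derl1, Krtcap2 and Ostc above 0 and Calr, Hsp90b1 and Hsp90ab1 below, and list medians lie between -0.07 and 0.02.

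Co-factors of BiP, the J-domain proteins and exchange factors that steer its cycle, gave no call. Of 13 tested 0 passed in either direction by limma, with 0 higher and 1 lower at an unadjusted p under 0.05 (Dnajc10, a reductase with a J domain, at 25.3 ± 0.639 and 22.5 ± 0.254 FPKM, adjusted p = 0.0871, named after its values were seen). Dnajb11, a J-domain protein that delivers clients to BiP, was at 57.2 ± 0.792 FPKM in the controls, against 59.0 ± 2.53 FPKM under tachypacing. Dnajb9, a J-domain protein strongly induced in the unfolded protein response, was at 10.3 ± 1.04 and 10.04 ± 0.318 FPKM. Dnajc3, another stress-induced J-domain protein, was at 13.6 ± 0.323 and 14.3 ± 0.103 FPKM. Manf and Creld2, secreted proteins also induced by reticulum stress, was at 93.1 ± 3.55 and 94.6 ± 3.93 FPKM and at 45.0 ± 0.977 and 45.8 ± 2.31 FPKM (SD, n = 3 each). Adjusted p was lowest for Dnajc3 (0.401) and highest for Manf (0.816) among these 5. This list also had 0 calls in either direction without control replicate 1.

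Of 18 tested thiol oxidoreductases outside the member set, 1 rose and 0 fell, with 1 higher and 3 lower at an unadjusted p under 0.05. Txndc12, a small thioredoxin-domain protein of the lumen, rose from 51.9 ± 2.01 to 60.5 ± 1.53 FPKM (log2 fold change 0.22, SE 0.05, adjusted p = 0.0484). P4hb, the founding protein disulfide isomerase, was more abundant than any member but Hspa5. It was at 1241, 1372 and 1369 FPKM in the controls, against 1181, 1208 and 1132 FPKM under tachypacing, without overlap, and did not pass (log2 fold change -0.18, SE 0.06, adjusted p = 0.0922). Its log2 fold change without control replicate 1 was -0.22 and passed (adjusted p = 0.0155). Pdia5 was at 10.2 ± 0.598 and 8.72 ± 0.180 FPKM (SD, n = 3 each, adjusted p = 0.0913, or 0.0200 without control replicate 1). In the fit without that library 1 of the 18 was higher and 4 were lower, where 11.2% and 18.8% of all tested genes were.

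Of 5 tested prolyl isomerases of the secretory pathway outside the member set, 1 rose and 0 fell. Fkbp11, a membrane-anchored relative of Fkbp2, rose from 11.2, 12.9 and 11.3 FPKM to 15.3, 17.2 and 14.2 FPKM. The tachypaced values were all above the control values, as for Fkbp2 (log2 fold change 0.37, SE 0.09, adjusted p = 0.0462), and the mean rose by 32.0%. Of the other 4 tested genes 1 had an unadjusted p under 0.05, Fkbp14, in the lower direction, at 4.95 ± 1.18 and 3.69 ± 0.365 FPKM (adjusted p = 0.166, or 0.00473 without control replicate 1, named after its values were seen). In the fit without that library 1 of the 5 was higher and 1 lower, where 11.2% and 18.8% of all tested genes were. Fkbp9 and Fkbp10 were listed at 0 in every library.

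Among 32 tested genes of glycan trimming and of the degradation of misfolded proteins, 1 rose and 0 fell, with 7 higher and 6 lower at an unadjusted p under 0.05. Derl1, a membrane protein of the channel that moves misfolded proteins to the cytosol, rose from 51.02, 45.96 and 43.9 FPKM to 62.5, 65.3 and 57.8 FPKM. The groups did not overlap (log2 fold change 0.39, SE 0.07, adjusted p = 0.0435). Herpud1, a stress-induced partner of the degradation complex, was at 26.4 ± 1.74 and 27.8 ± 0.316 FPKM (adjusted p = 0.454). Sel1l, the scaffold of that complex, was at 22.2 ± 1.73 and 24.8 ± 0.577 FPKM (adjusted p = 0.153, or 0.0150 without control replicate 1). In the fit without that library 7 of the 32 were higher and 5 lower, where 11.2% and 18.8% of all tested genes were. Of 30 tested genes of the translocon, signal peptidase and oligosaccharyltransferase, 2 rose and 0 fell, with 5 higher and 2 lower at an unadjusted p under 0.05. Both are small subunits of the glycosylating complex. Krtcap2 rose from 113 ± 5.85 to 150 ± 16.2 FPKM (log2 fold change 0.40, adjusted p = 0.0435) and Ostc from 79.3 ± 3.66 to 97.3 ± 7.03 FPKM (log2 fold change 0.29, adjusted p = 0.0459, SD, n = 3 each).

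The sensors and transcription factors of the unfolded protein response gave 0 calls among 13 tested genes by limma. At an unadjusted p under 0.05, 1 was higher and 5 lower, where 10.8% and 19.4% of all tested genes were. Ddit3, the stress-induced factor CHOP, was at 105.6, 140.7 and 138.4 FPKM in the controls, against 93.5, 94.1 and 102.9 FPKM under tachypacing. The groups did not overlap, and the log2 fold change of -0.39 did not pass (SE 0.10, adjusted p = 0.0581). Xbp1, whose spliced form drives chaperone genes, was at 36.8, 45.3 and 50.3 FPKM in the controls, against 34.2, 33.6 and 39.0 FPKM under tachypacing, where control replicate 1 lay within the tachypaced range (log2 fold change -0.29, adjusted p = 0.108). The table gives 1 value per gene name, so spliced and unspliced Xbp1 were not separated. Atf4, the effector of the Eif2ak3 arm, was at 113 ± 8.95 and 100.4 ± 2.30 FPKM (adjusted p = 0.118). The sensor genes Ern1, Eif2ak3 and Atf6 was at 10.97 ± 2.19 and 12.6 ± 0.422, at 4.94 ± 0.414 and 4.81 ± 0.437, and at 41.6 ± 4.75 and 41.6 ± 2.23 FPKM, with adjusted p of 0.277, 0.837 and 0.970. Without control replicate 1, 3 of the 13 were higher and 5 lower, where 11.2% and 18.8% of all tested genes were. The called genes included Ddit3 (-0.52), Xbp1 (-0.42) and Atf4 (-0.24) lower and Ern1 (0.34) higher on the log2 scale.

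Of 17 tested genes of COPII vesicle export and of the receptors that return escaped chaperones by their KDEL tails, 0 passed in either direction by limma, with 1 higher and 5 lower at an unadjusted p under 0.05. Kdelr2, 1 of these receptors, was at 49.6 ± 2.59 and 44.8 ± 2.14 FPKM (adjusted p = 0.150, or 0.0326 without control replicate 1). Without that library 3 of the 17 were lower and 0 higher, where 18.8% and 11.2% of all tested genes were. Of 14 counterparts in the cytosol and mitochondria, 1 fell and 0 rose. Hsp90ab1, the constitutive cytosolic Hsp90, fell from 1112, 1179 and 1242 FPKM to 917.5, 931.3 and 993.4 FPKM (log2 fold change -0.31, SE 0.06, adjusted p = 0.0435), a size close to that of Hsp90b1. Its adjusted p was 0.0034 without control replicate 1 and 0.0675 to 0.173 without any other single library, so this call too was lost there. Hspa8, the constitutive cytosolic Hsp70, was at 973 ± 34.5 and 946 ± 46.7 FPKM (SD, n = 3 each, adjusted p = 0.652), and its groups overlapped like those of Hspa5.

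Transcript length moved with the fold changes in the whole table. Across 9783 tested genes with a protein-coding transcript in GENCODE M21, Spearman's rho between the length of the longest such transcript and the log2 fold change was -0.16, a description across genes that are not independent. Called genes had a median length of 1843 bases in the higher and 3398 bases in the lower direction. Fkbp2, at 1526 bases, is in a length decile with a median log2 fold change of -0.02. Hsp90b1 at 2825 bases and Calr at 2184 bases are in deciles with medians of -0.04. Sdf2l1, the shortest member at 1108 bases, had a log2 fold change of -0.14 where its decile had a median of 0.04. Over the 10 members rho was 0.19, and over 127 genes of the reticulum lists it was -0.08. Whether these values differ from that of the whole table was not tested, and 10 members give only a rough value. Of the related genes that rose, Fkbp11, Ostc, Krtcap2 and Txndc12 had lengths of 734, 1067, 1172 and 1359 bases and Derl1 3175 bases. With each library's trend over length removed, an alternative chosen after seeing the data, the log2 fold change was 0.41 for Fkbp2, -0.29 for Hsp90b1 and -0.18 for Calr. The adjusted p was then 0.0513, 0.0520 and 0.0613, so 0 of the 10 members passed, where 0.0102% of all genes with a length (1 gene) were higher and 0 lower.

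**Figure D4:**
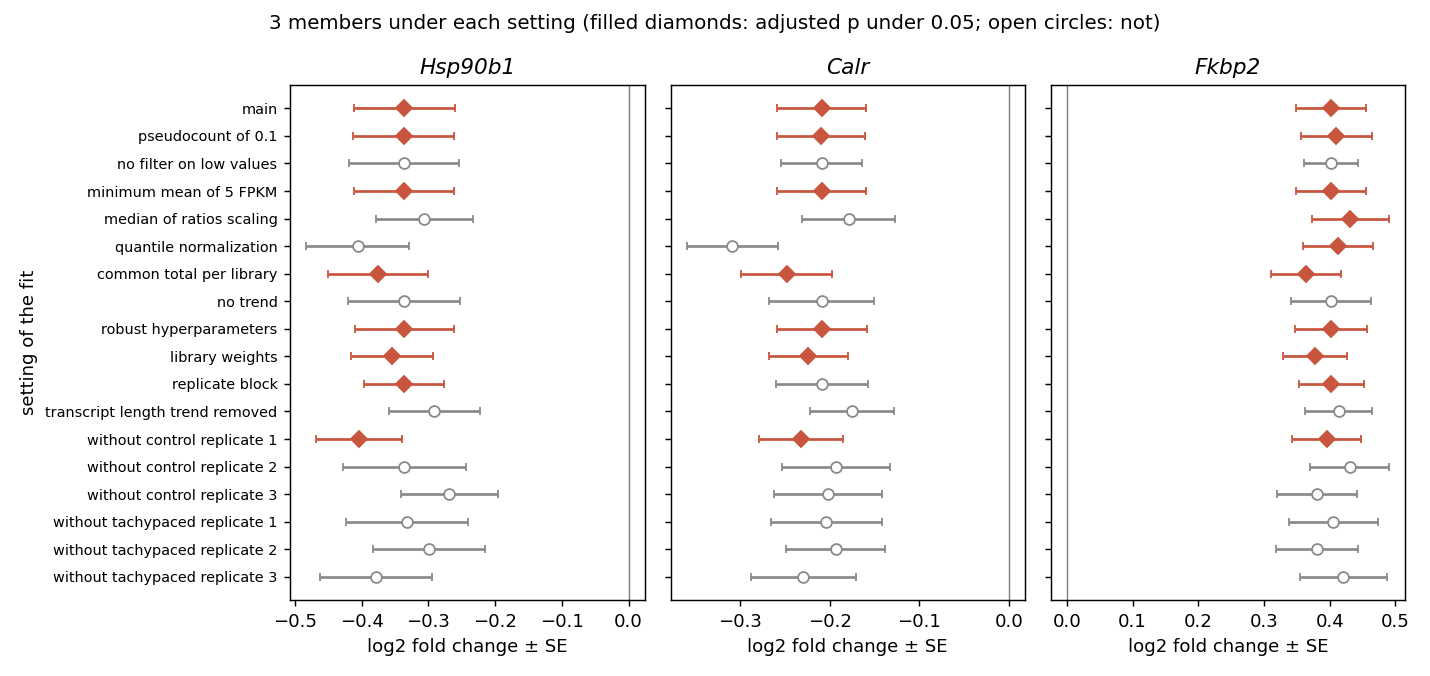
Log2 fold change with its standard error (horizontal axes, drawn over a different range for each gene) of Hsp90b1, Calr and Fkbp2 under each setting of the fit (vertical axis). Filled red diamonds have an adjusted p under 0.05 and open grey circles do not. Estimates stay between -0.41 and -0.27 for Hsp90b1, between -0.31 and -0.18 for Calr and between 0.36 and 0.43 for Fkbp2, and the adjusted p is under 0.05 in only some of the settings.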

How the data were processed

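Total RNA was made into libraries with a SMARTER mRNA kit, per the labels' protocols. The authors deposited 1 table of FPKM values for all 6 libraries. Per the submitters' processing notes the build was GRCm38 (mm10). No aligner, quantifier, annotation or strand setting is named there (not given in the sources used here). Columns were matched to samples by the sample descriptions. Values were taken as log2(FPKM + 1), and 10361 genes averaging 1 FPKM or more were fitted with limma 3.58.1 in R 4.3.3 (trend, two-sided, no covariates, Benjamini-Hochberg threshold of 0.05). On this scale fold changes of low genes are understated. No exact permutation test was used, since with 3 against 3 its smallest p is 0.1. Simulated data were made from these 10361 genes, with 200 of them changed. In the simulation, log2 changes of 0.25, 0.5, 0.75 and 1 were recovered in 14%, 80%, 88% and 96% of cases. Of all calls in it, 6.71% were false. These rates describe the simulation only and give no power or false call rate for the real libraries. There, leaving out control replicate 1 moved the calls from 238 higher and 334 lower to 1160 and 1948. Read depth was sought in ratios of values under 0.1 FPKM, of which no log2 bin of width 0.05 held more than 5.15%.

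The members and gene lists were chosen with earlier results of these data known. Named genes are all members, up to 4 called genes per list with the largest change and a fixed set of stress and chaperone genes. Alternatives were another pseudocount, filters, scalings, variance models, library weights, a replicate block, leaving out each library, and a length correction added after seeing the data. Python 3.11.15, pandas 2.3.3 and matplotlib 3.10.9 made tables and figures.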

Additional observations from a re-analysis of the deposited data

How the results depend on the processing

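The direction of Hsp90b1, Calr and Fkbp2 was the same under all 17 alternatives, and they passed the threshold in 7, 6 and 9 of them. Counts of members called were 1 higher and 2 lower. They were 0 and 0 with no filter on low values, without the trend and with the transcript length trend removed, and 1 and 0 after median of ratios scaling and quantile normalization. Leaving out 1 library gave 0 to 1 higher and 0 to 3 lower members, 0 to 17 higher and 0 to 22 lower reticulum genes of the lists, and 1 to 1160 higher and 0 to 1948 lower genes in all. The high ends come from leaving out control replicate 1. Of the reticulum lists, 5 higher and 0 lower became 0 higher with no filter, quantile normalization, no trend or the length trend removed, 16 higher and 23 lower with library weights, 2 lower with a minimum mean of 5 FPKM and 5 lower with a common total. All genes, 238 higher and 334 lower, became 0 and 0 with no filter, 13 and 4 after quantile normalization, 2 and 0 without the trend, 1154 and 1942 with library weights, and 1 and 0 with the length trend removed. Lower calls were 184 after median of ratios scaling and 924 with a common total. With the replicate number as a block there were 334 higher and 591 lower genes, 1 member lower (Hsp90b1, as Calr had an adjusted p of 0.0532) and 2 reticulum genes lower. Same-numbered libraries correlated by 0.06, -0.03 and 0.16 in their deviations, and not every library correlated best with its own number. These deviations sum to 0 within each group, so the correlations cannot decide whether equal numbers pair libraries. Why the counts moved between settings was not tested.

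The median log2 fold change of the members, -0.06, was -0.032 after median of ratios scaling, -0.12 after quantile normalization, -0.10 with a common total, -0.089 with library weights, -0.011 with the length trend removed and -0.091 to -0.055 with 1 library left out. Of the 32 genes followed through all settings (the members and the genes named by the rule), the signs that turned are these, all of genes that did not pass. After quantile normalization Hspa5 was at -0.11, Dnajb9 at 0.020 and Eif2ak3 at 0.018. With a common total Hspa5 was at -0.038, Manf at -0.017, Creld2 at -0.013 and Atf6 at -0.033. Pdia3 was at 0.0081 after median of ratios scaling, and Eif2ak3 at 0.036 with library weights. With the length trend removed Pdia3 was at 0.022, Dnajb9 at 0.0063, Eif2ak3 at 0.031, Canx at 0.0061 and Hyou1 at 0.0029. With 1 library left out, Hspa5 ran from -0.028 to 0.041, Dnajb9 from -0.081 to 0.040, Eif2ak3 from -0.086 to 0.031, Manf from -0.012 to 0.043, Creld2 from -0.0081 to 0.063 and Atf6 from -0.049 to 0.096. Depth is unknown, so no detection limit is given for genes listed at 0.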

Other observations

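ERSE matches were also found in 5 of 112 genes of the 7 reticulum lists that have a RefSeq promoter, Creld2, Derl3, Dnajc3, Ero1lb and Syvn1, and ERSE-II matches in 3, Dnajb11, Herpud1 and Krtcap2. Of these 8 genes Krtcap2 passed the test, in the higher direction, and its ERSE-II match lies within the first bases after the RefSeq start. The log2 fold changes of Creld2, Dnajc3, Ero1lb, Dnajb11 and Herpud1 lay between -0.03 and 0.07, that of Syvn1 was 0.14 (adjusted p = 0.252), and Derl3 was below the level tested. The core of the unfolded protein response element was in 8 of the 112, Dnajc25, Kdelr3, Sec23a, Sec24d, Txndc11, Txndc5, Ube2j1 and Vcp, and 0 of these passed by limma. Their log2 fold changes ran from -0.46 for Kdelr3 (adjusted p = 0.0772) and -0.38 for Vcp (adjusted p = 0.0556, or 0.000448 without control replicate 1) to 0.03 for Txndc11. At an unadjusted p under 0.05 there were 0 higher and 2 lower (Kdelr3 and Vcp), where 10.8% and 19.4% of all tested genes were. In the fit without control replicate 1, 18.8% of all tested genes were called lower.

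A pair of further reticulum genes stand out by their level or values and were chosen after these were seen. In the fit without control replicate 1, given for both, 11.2% of all tested genes were called higher and 18.8% lower. Ero1l, the oxidase that recharges disulfide isomerases, averaged 1076 ± 103 FPKM in the controls and 998 ± 28.0 FPKM under tachypacing (SD, n = 3 each; adjusted p = 0.364, or 0.0298 without control replicate 1), above every member but Hspa5. Mzb1, a partner of the Hsp90b1 protein known from plasma cells, was at 1.24, 1.62 and 0.0997 FPKM in the controls, against 2.95, 2.56 and 2.37 FPKM under tachypacing (adjusted p = 0.0657, or 0.0258 without control replicate 1 and 0.0416 with the replicate block), while Tnfrsf17, another plasma cell marker, was listed at 0 in every library.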
